A study of Mus musculus with 16 samples.

Results

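The genes described here are those of the NRF2 pathway and its thioredoxin branch: Nfe2l2, Keap1, Nqo1, Hmox1, Gclc, Gclm, Gsr, Txnrd1, Srxn1 and Txnip. They were chosen by symbol, with earlier results of these data known, as the rows of the count table whose Ensembl identifier maps to these names, and all 10 were found among the 52636 genes of the table. All 10 passed the filter on low counts, which left 18587 genes. Gene expression was measured by RNA sequencing of islets, the endocrine clusters of the pancreas, kept in culture for 10 days. Control islets received no addition, and the other islets received 50 pg/ml IL-1β, a pro-inflammatory cytokine, or 0.2 mM sodium butyrate, a product of fiber fermentation in the gut, or both together. Each of the 4 conditions had 4 libraries (16 in all), numbered as replicates 1 to 4, with cultures of 500 islets per condition from 12-week-old wild-type male mice. The labels name the strain as C57BL/6JRj, whereas the methods of the study name C57BL/6NRj. The islets for RNA were pools from several mice, so a replicate is not an animal, and the culture held all cell types of the islet.

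NRF2, the product of Nfe2l2, is a transcription factor that turns on genes of antioxidant defense. In resting cells KEAP1 binds it and hands it to a CUL3 ubiquitin ligase for degradation, and oxidants or electrophiles that modify KEAP1 let NRF2 accumulate, so much of its control lies in the amount of protein, which RNA sequencing does not measure. In the nucleus it pairs with small MAF proteins on antioxidant response elements of genes for glutathione synthesis, thioredoxin reduction, quinone detoxification and heme breakdown, where BACH1 can hold the sites in a silent state. TXNIP binds and inhibits thioredoxin, is strongly induced by glucose through carbohydrate response elements and the factor ChREBP, and is well known in beta cells, whose antioxidant enzymes are sparse.

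The promoter sequences of members that rose with IL-1β or carried a match are shown for what they share in letters, since the data contain no measurement of binding. RefSeq windows (GRCm38.p6) of 300 bases, from 250 before to 50 after a gene start, were at hand for 7 of the 10 genes, in 9 windows, and not for Hmox1, Gclc and Gsr. They were searched on both strands for the core of the antioxidant response element, TGACNNNGC, for the NRF2 and small MAF site TGANTCAGC, which can overlap the core, for the E-box CACGTG, and for a carbohydrate response repeat, CACGAG followed by 5 bases of any kind and a second CACGAG. The letters of the repeat were set with the windows in view, so its rarity is no finding. Capitals mark the matches, each sequence is given 5′ to 3′ along the gene's own strand, and a match on the other strand appears as its reverse complement. Nfe2l2 is shown at chr2:75704614-75704913 (minus strand), Gclm at chr3:122245307-122245606 (plus), the second Txnrd1 start at chr10:82858956-82859255 (plus), Srxn1 at chr2:152105274-152105573 (plus) and Txnip at chr3:96557707-96558006 (plus).
Nfe2l2: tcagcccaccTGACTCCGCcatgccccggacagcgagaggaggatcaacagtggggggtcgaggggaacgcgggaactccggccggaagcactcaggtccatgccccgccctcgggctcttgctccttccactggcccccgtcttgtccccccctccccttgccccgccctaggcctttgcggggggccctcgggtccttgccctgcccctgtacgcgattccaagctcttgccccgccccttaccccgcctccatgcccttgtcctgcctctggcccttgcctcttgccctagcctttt
Gclm: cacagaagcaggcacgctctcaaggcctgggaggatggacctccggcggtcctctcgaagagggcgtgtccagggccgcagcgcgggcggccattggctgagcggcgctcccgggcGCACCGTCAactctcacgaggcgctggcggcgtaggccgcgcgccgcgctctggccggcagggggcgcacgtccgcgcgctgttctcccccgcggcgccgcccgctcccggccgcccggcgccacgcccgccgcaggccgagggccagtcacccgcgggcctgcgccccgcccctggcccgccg
Txnrd1: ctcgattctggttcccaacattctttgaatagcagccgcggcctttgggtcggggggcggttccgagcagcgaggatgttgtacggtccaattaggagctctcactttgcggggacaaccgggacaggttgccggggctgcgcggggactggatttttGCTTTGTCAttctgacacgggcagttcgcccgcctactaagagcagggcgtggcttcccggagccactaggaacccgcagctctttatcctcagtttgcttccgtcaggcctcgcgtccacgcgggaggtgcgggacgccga
Srxn1: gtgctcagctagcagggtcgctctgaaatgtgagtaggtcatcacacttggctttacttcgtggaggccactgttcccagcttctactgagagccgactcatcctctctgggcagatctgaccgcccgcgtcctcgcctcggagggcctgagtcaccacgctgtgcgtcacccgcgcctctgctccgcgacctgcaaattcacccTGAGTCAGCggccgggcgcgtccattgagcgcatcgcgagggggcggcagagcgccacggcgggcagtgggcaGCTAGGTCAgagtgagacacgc
Txnip: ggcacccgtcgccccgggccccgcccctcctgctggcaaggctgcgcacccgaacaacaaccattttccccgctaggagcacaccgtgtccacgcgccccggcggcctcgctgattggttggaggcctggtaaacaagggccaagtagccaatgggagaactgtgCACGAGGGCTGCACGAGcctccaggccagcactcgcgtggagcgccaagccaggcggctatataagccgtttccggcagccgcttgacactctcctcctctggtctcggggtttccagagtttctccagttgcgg
Of all 9 windows of the members, 4 held the core TGACNNNGC (4 of 7 genes), next to 12.4% of the 32851 windows of all genes. All 4 are shown here, Srxn1 for its matches alone and the others also as genes that rose with IL-1β. The core lay from -240 to -232 relative to the start in Nfe2l2, from -134 to -126 in Gclm and from -92 to -84 in Txnrd1, and from 28 to 36 after the start in Srxn1, in the last 3 on the opposite strand. TGANTCAGC, found in 1.19% of all windows, was present only in Srxn1 among the members' windows, from -45 to -37. CACGTG, in 7.15% of all windows, was in none of the 9, and the repeat was in Txnip, from -85 to -69, and in no other of the 32851 windows (0.00304%). A match of letters is not a bound site, and the windows leave out distal elements.

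The libraries held 18635943 to 25955943 counts (median 22184715). Islet identity was clear from the beta cell markers (Ins1, Ins2, Iapp, Slc2a2, G6pc2 and Nkx6-1), which summed to between 213688 and 236459 CPM, counts scaled to a common library size, in control islets and to between 137444 and 179068 CPM with IL-1β. Levels here are CPM of the TMM-scaled libraries, so a gene's level also depends on such large classes of RNA. Of the 6 beta cell markers, 4 fell and 1 rose with IL-1β, and 2 rose and none fell with butyrate. Macrophage markers moved with IL-1β as well: 9 of 10 rose and C1qa fell, with a median log2 fold change of 2.13, and no marker was at 0 in any condition. Their summed level was 131 to 144 CPM in control islets, 189 to 237 CPM with IL-1β, 102 to 142 CPM with IL-1β plus butyrate and 86.8 to 107 CPM with butyrate. With C1qa left out, a choice made after its values were seen, the ranges were 19.2 to 31.3, 97.5 to 169.7, 43.9 to 97.0 and 15.5 to 25.2 CPM in the same order. Duct markers summed to 340.3 to 367 CPM in control islets, 327 to 366 CPM with butyrate, 499 to 597 CPM with IL-1β and 514 to 812 CPM with both additions. Of the 4 duct markers, 2 rose with IL-1β and 1 with both additions against control, and none fell. Endothelial markers summed to 3.22 to 3.87 CPM in control islets, 4.24 to 5.598 CPM with IL-1β and 5.14 to 5.83 CPM with both. Of these 4 genes, however, only 1 rose and none fell with IL-1β, at a median log2 fold change of -0.20. Acinar markers summed to 0.042 to 2.15 CPM in control islets and 2.43 to 11.9 CPM with IL-1β, where 1 of the 3 tested rose. Markers of alpha, delta and PP cells summed to 23735 to 26014 CPM in control islets and to 28747 to 31771 CPM with both additions, and those of fibroblasts overlapped between all conditions. Of the 5 alpha, delta and PP cell markers, 1 rose and 1 fell with both additions against control. In bulk RNA, fewer or more cells of a type and less or more RNA per cell cannot be told apart, and the part of cell composition in the differences that follow was not tested.

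**Figure D1:**
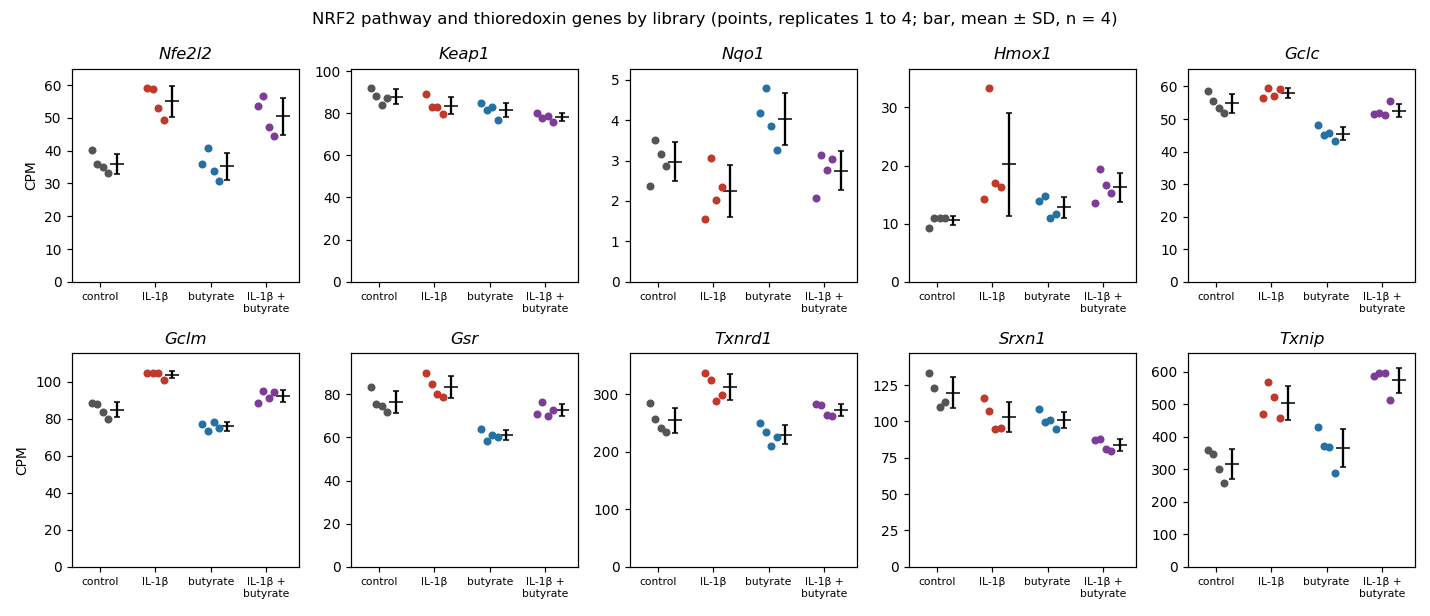
TMM-scaled CPM of the 10 genes in each of the 16 libraries, with 1 panel per gene and the vertical axis from 0; points are replicates 1 to 4 from left to right and bars give the mean ± SD (n = 4). Nfe2l2, Gclm, Txnrd1 and Txnip sit higher in all IL-1β libraries than in all control libraries, as does Hmox1, which did not pass the edgeR test. Gclc, Gclm, Gsr and Srxn1 sit lower in all butyrate libraries than in all control libraries.

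IL-1β significantly raised 4 of the 10 genes, Nfe2l2, Gclm, Txnrd1 and Txnip, and lowered none (edgeR quasi-likelihood test across all genes, Benjamini-Hochberg adjusted p under 0.01). Of all 18587 genes tested, 17.8% passed this test, 11.2% upward and 6.59% downward. DESeq2 called 5 rises, Hmox1 being the fifth, and no fall, and at an unadjusted edgeR p under 0.05 there were 6 higher and 2 lower. With butyrate alone, Gclc, Gclm, Gsr and Srxn1 fell and none rose, where 19.9% of all genes passed, 8.53% upward and 11.4% downward. DESeq2 also gave 4 falls and no rise, with 1 gene higher and 6 lower at an unadjusted edgeR p under 0.05, and upper-quartile scaling left 2 of the 4 falls, those of Gclc and Gsr. Added to IL-1β, butyrate lowered Gclm, Gsr and Srxn1 relative to IL-1β alone and raised none, where 19.5% of all genes passed, 8.41% upward and 11.1% downward. Here DESeq2 gave 5 falls, with Gclc and Txnrd1 added, and no rise, none was higher and 6 were lower at an unadjusted edgeR p under 0.05, and upper-quartile scaling left the fall of Srxn1 alone. The median log2 fold change of the 10 genes was 0.21 with IL-1β, -0.13 with butyrate and -0.16 with butyrate on top of IL-1β, whereas the medians of all genes were -0.03, 0.01 and 0.01. The unadjusted cutoff was met by a large part of the 18587 genes. In order of edgeR p, Nqo1 ranked 6298 with IL-1β and still met it. So did Txnrd1 at rank 6093 with butyrate and Keap1 at rank 6999 on top of IL-1β. At least that many genes met the cutoff in each comparison, so the counts of members at it are a description only. The comparisons share libraries, so their values stand side by side and are not independent of each other.

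Nfe2l2 (ENSMUSG00000015839; chromosome 2, 75675513 to 75704641, minus strand, GRCm38) encodes NRF2 itself. It was at 40.2, 35.9, 34.9 and 33.1 CPM in control replicates 1 to 4 and at 59.1, 58.8, 53.0 and 49.2 CPM with IL-1β. It was at 53.6, 56.8, 47.1 and 44.6 CPM with both additions and at 35.9, 40.7, 33.8 and 30.7 CPM with butyrate. Every library with IL-1β, with or without butyrate, was thus above every library without it. The rise with IL-1β was 1.52-fold (log2 fold change 0.61, SE 0.09, edgeR adjusted p = 5.2e-05). In the presence of butyrate the log2 fold change of IL-1β was 0.52 (SE 0.09, edgeR adjusted p = 0.00031), and islets with both additions exceeded control islets by 0.49 on the log2 scale (edgeR adjusted p = 0.00027). Butyrate itself gave a log2 difference of -0.03 against control (95% interval -0.23 to 0.17) and of -0.12 on top of IL-1β (-0.31 to 0.07). The 4 levels thus fell into a higher pair and a lower pair, and no difference inside either pair was called. Within each replicate number, however, the value with both additions was below that with IL-1β alone. The replicate number as a block gave an edgeR adjusted p of 0.028 for this difference, short of the threshold.

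Keap1 (ENSMUSG00000003308; chromosome 9, 21229730 to 21239361, minus strand), the adaptor that holds NRF2, varied least among the 10 genes. It was at 92.0, 88.4, 83.7 and 87.4 CPM in control islets and at 89.1, 82.8, 82.9 and 79.8 CPM with IL-1β, and these ranges overlapped. It was at 84.6, 81.7, 82.7 and 76.6 CPM with butyrate and at 80.2, 77.7, 78.4 and 75.6 CPM with both additions. Only the outermost conditions separated: islets with both additions were below control islets in every library (log2 fold change -0.17, SE 0.05, edgeR adjusted p = 0.0035). In that comparison 30.6% of all genes passed the test, 15.8% of all genes upward and 14.8% downward, and the call was lost in 5 of 23 alternative analyses, among them the scaling by library size alone. The difference with IL-1β alone was -0.07 on the log2 scale (95% interval -0.17 to 0.02). An antisense transcript, Gm16754, shares 510 exon bases with Keap1, and the counting of strand is not stated.

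Glutathione is the main small antioxidant of the cell, and Gclm, Gclc and Gsr serve its synthesis and reduction. Gclm (ENSMUSG00000028124; chromosome 3, 122245557 to 122270732, plus strand) encodes the modifier subunit of glutamate-cysteine ligase, the rate-limiting enzyme of glutathione synthesis. It was at 88.4, 87.9, 83.5 and 79.7 CPM in control islets and at 105, 105, 104 and 101 CPM with IL-1β. It was at 77.3, 73.1, 78.2 and 74.9 CPM with butyrate and at 88.4, 95.1, 91.0 and 94.2 CPM with both additions. IL-1β raised it by 0.29 on the log2 scale (SE 0.04, edgeR adjusted p = 9.7e-06) and, in the presence of butyrate, by 0.28 (edgeR adjusted p = 2.0e-05). Butyrate lowered it, with log2 fold changes of -0.16 against control (SE 0.04, edgeR adjusted p = 0.0065) and of -0.17 on top of IL-1β (SE 0.04, edgeR adjusted p = 0.0038). The order from butyrate through control and the combination to IL-1β was therefore separated at each step except between control and the combination, which overlapped and differed by 0.12 (95% interval 0.03 to 0.21, edgeR adjusted p = 0.033). The fall with butyrate alone missed the threshold in 6 of 23 alternatives and the fall on top of IL-1β in 2, upper-quartile scaling being among them in both cases. Gm17494, on the opposite strand, shares 296 exon bases with Gclm. The pseudogene Gm6061, on the same strand, shares 244 and had 0 counts in every library. The effect of these overlaps on the counts of Gclm was not tested.

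Gclc (ENSMUSG00000032350; chromosome 9, 77754535 to 77794485, plus strand) encodes the catalytic subunit of the same ligase. It was at 58.7, 55.5, 53.3 and 51.8 CPM in control islets and at 56.4, 59.5, 57.0 and 59.3 CPM with IL-1β, with overlapping ranges. It was at 48.1, 45.1, 45.6 and 43.3 CPM with butyrate, below every other library, and at 51.6, 51.9, 51.4 and 55.4 CPM with both additions. Butyrate lowered it (log2 fold change -0.27, SE 0.05, edgeR adjusted p = 0.00011). On top of IL-1β the difference was -0.15 (SE 0.05, edgeR adjusted p = 0.022), with all 4 libraries lower than all of those with IL-1β alone but short of the threshold. IL-1β gave 0.08 in the absence of butyrate (95% interval -0.01 to 0.18) and raised Gclc by 0.21 in its presence (SE 0.05, edgeR adjusted p = 0.0020). This last call was lost without replicate 4 of either condition, with the adjusted p reaching 0.013.

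Gsr (ENSMUSG00000031584; chromosome 8, 33652523 to 33698163, plus strand) encodes glutathione reductase, which returns oxidized glutathione to its reduced form with NADPH. It was at 83.6, 75.6, 74.5 and 71.8 CPM in control islets and at 90.0, 84.7, 80.1 and 78.8 CPM with IL-1β. It was at 64.0, 58.5, 60.9 and 60.3 CPM with butyrate and at 70.9, 76.5, 70.1 and 72.7 CPM with both additions. Butyrate libraries were the lowest, and the libraries with both additions lay below those with IL-1β. The fall with butyrate was the largest among these 3 glutathione genes, at a log2 fold change of -0.33 (SE 0.05, edgeR adjusted p = 2.5e-05). On top of IL-1β it was -0.20 (SE 0.05, edgeR adjusted p = 0.0042), a call that upper-quartile scaling moved to an adjusted p of 0.012. IL-1β raised Gsr by 0.25 in the presence of butyrate (SE 0.05, edgeR adjusted p = 0.00062), and gave 0.13 in its absence (95% interval 0.02 to 0.23, edgeR adjusted p = 0.075).

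Thioredoxin reduces protein disulfides, and thioredoxin reductase keeps it reduced. Txnrd1 (ENSMUSG00000020250; chromosome 10, 82833951 to 82897712, plus strand), the cytosolic reductase, was at 285, 257, 242 and 234 CPM in control islets and at 337, 324, 288 and 299 CPM with IL-1β. It was at 250.0, 234, 210.1 and 226 CPM with butyrate and at 283, 282, 265 and 263 CPM with both additions. All libraries with IL-1β alone exceeded all other libraries. IL-1β raised it (log2 fold change 0.29, SE 0.06, edgeR adjusted p = 0.00055), also by 0.25 in the presence of butyrate (SE 0.06, edgeR adjusted p = 0.0035). Butyrate on top of IL-1β gave -0.19 (SE 0.06, edgeR adjusted p = 0.018), and butyrate alone -0.15 (SE 0.06, edgeR adjusted p = 0.074), neither past the threshold. In the same order, 6 and 2 of 23 alternatives took these falls past it. The replicate number as a block was among them in both cases (edgeR adjusted p = 9.8e-05 and 0.0025). The rise in the presence of butyrate was lost without replicate 1 or 2 of the combination or replicate 3 or 4 of butyrate, with an adjusted p of up to 0.021.

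Srxn1 (ENSMUSG00000032802; chromosome 2, 152105516 to 152111376, plus strand) encodes sulfiredoxin, which restores overoxidized peroxiredoxins, and it fell with butyrate both alone and on top of IL-1β, with values that lay lower rather than higher when IL-1β was added. It was at 133, 123, 109.7 and 113 CPM in control islets and at 116, 107, 94.7 and 95.2 CPM with IL-1β. It was at 109, 99.4, 101 and 94.7 CPM with butyrate and at 87.1, 88.1, 81.0 and 79.9 CPM with both additions. The combination was below every other library, and the levels with either addition alone overlapped each other. Against control it fell with a log2 fold change of -0.25 with butyrate (SE 0.07, edgeR adjusted p = 0.0053) and of -0.51 with both additions (SE 0.07, edgeR adjusted p = 8.2e-07). Butyrate on top of IL-1β gave -0.30 (SE 0.07, edgeR adjusted p = 0.0014), and IL-1β in the presence of butyrate -0.26 (SE 0.07, edgeR adjusted p = 0.0045). With IL-1β alone the difference was -0.22 (95% interval -0.35 to -0.08, edgeR adjusted p = 0.015), and 5 of 23 alternatives took this fall past the threshold. The falls with butyrate alone and with IL-1β in the presence of butyrate were each lost in 6 of 23 alternatives, while the other 2 called falls were kept in all 23.

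Txnip (ENSMUSG00000038393; chromosome 3, 96557957 to 96561883, plus strand), the inhibitor of thioredoxin, had the highest level of the 10 genes per length of exon, at 101 ± 14.8 CPM per kb in control islets (SD, n = 4), against 42.5 ± 3.79 CPM per kb for Srxn1, the next in order. It was at 360.3, 347, 302 and 259 CPM in control islets and at 469.6, 569.8, 523 and 457 CPM with IL-1β. It was at 429.8, 371, 369.5 and 289 CPM with butyrate and at 587, 597, 595 and 515 CPM with both additions. All 8 libraries with IL-1β were above all 8 without it. IL-1β raised it 1.59-fold (log2 fold change 0.67, SE 0.12, edgeR adjusted p = 0.0010) and by 0.65 on the log2 scale in the presence of butyrate (SE 0.12, edgeR adjusted p = 0.0014). Islets with both additions exceeded control islets 1.81-fold (log2 fold change 0.86, SE 0.12, edgeR adjusted p = 7.1e-05). Butyrate gave 0.20 against control (95% interval -0.06 to 0.47) and 0.18 on top of IL-1β (-0.08 to 0.45), above 0 in both cases but short of the test. Within each replicate number the value with butyrate was the higher in both comparisons. The replicate number as a block gave edgeR adjusted p-values of 0.03 and 0.044, also short of the threshold. The antisense transcript Gm15441 shares 606 exon bases with Txnip. It had 48 to 90 counts per library where Txnip had 6044 to 14448.

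**Figure D2:**
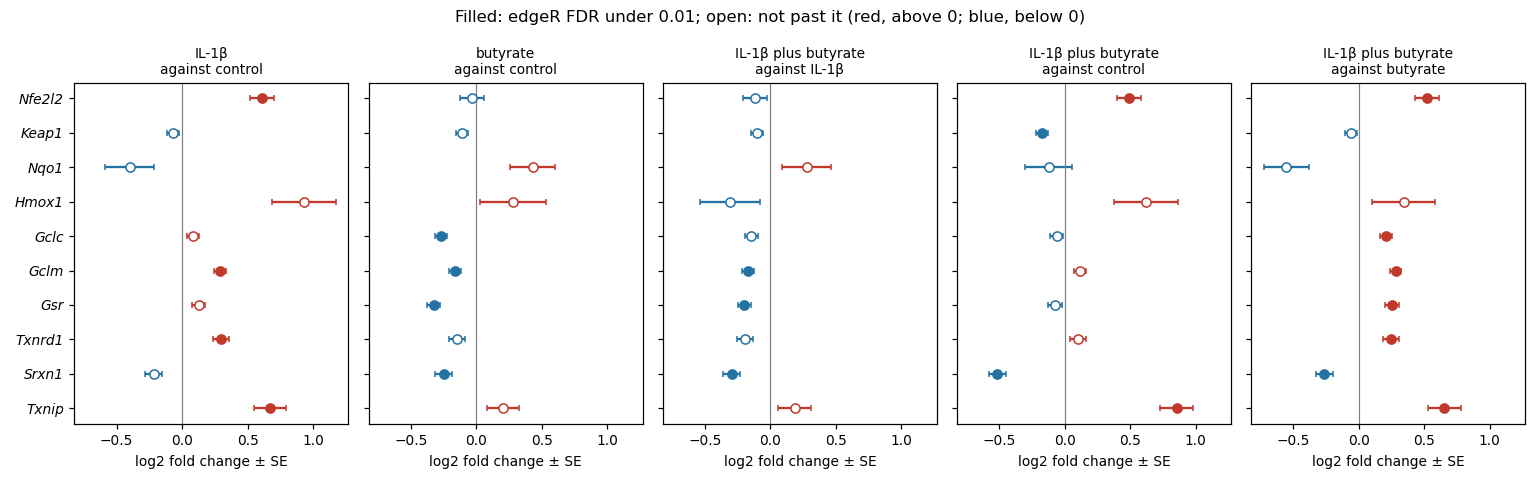
Log2 fold change ± SE of each of the 10 genes in the 5 comparisons of 2 conditions (edgeR, n = 4 per condition); filled points are past an adjusted p of 0.01 and open points are not, red above 0 and blue below. Txnip reaches the largest called value, 0.86 with both additions against control, and Srxn1 has a called value below 0 in 4 of the 5 panels.

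Nqo1 and Hmox1, which are widely used as readouts of NRF2, did not pass the edgeR test in any comparison, while DESeq2 called Hmox1 higher with IL-1β (log2 fold change 0.95, DESeq2 adjusted p = 0.00055). Nqo1 (ENSMUSG00000003849; chromosome 8, 107388225 to 107403206, minus strand), a quinone reductase, was the member with the lowest level, with 30 to 108 counts per library. It was at 2.38, 3.50, 3.15 and 2.87 CPM in control islets and at 1.55, 3.07, 2.02 and 2.35 CPM with IL-1β. It was at 4.17, 4.80, 3.87 and 3.27 CPM with butyrate and at 2.07, 3.14, 2.76 and 3.03 CPM with both additions. Of the 5 comparisons of 2 conditions, libraries were apart in 1, where all those with both additions lay below all those with butyrate alone (log2 fold change -0.55, SE 0.17, edgeR adjusted p = 0.021), and 3 of 23 alternatives took this fall past the threshold. IL-1β gave -0.40 (95% interval -0.78 to -0.02, edgeR adjusted p = 0.12) and butyrate 0.43 (0.08 to 0.79, edgeR adjusted p = 0.061), with both intervals clear of 0 before adjustment and neither value past the adjusted threshold.

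Hmox1 (ENSMUSG00000005413; chromosome 8, 75093621 to 75100589, plus strand) encodes heme oxygenase 1, which breaks down heme and is also a gene of macrophages. It was at 9.29, 10.97, 10.99 and 10.96 CPM in control islets and at 14.2, 33.3, 16.9 and 16.3 CPM with IL-1β. It was at 13.96, 14.7, 10.9 and 11.7 CPM with butyrate and at 13.6, 19.4, 16.7 and 15.3 CPM with both additions. Replicate 2 with IL-1β stood far above the other 3, yet even the lowest IL-1β library was above the highest control library. The log2 fold change with IL-1β was 0.93 (SE 0.24, 95% interval 0.40 to 1.46), and its edgeR adjusted p of 0.012 missed the threshold. Over 23 alternatives this adjusted p ranged from 0.00054 to 0.057, with 5 under the threshold, and without IL-1β replicate 2 the fold change was 0.59 and was called. Without that library, the difference of the combination from IL-1β turned from -0.31 to 0.04. The summed macrophage markers without C1qa were 127 CPM in that library and 97.5 to 169.7 CPM in the IL-1β libraries, so the library with the most Hmox1 was not the highest in these markers. With all 10 markers, the libraries with both additions (102 to 142 CPM) overlapped those of control islets (131 to 144 CPM). The part of macrophages in the level of Hmox1 was not tested.

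**Figure D3:**
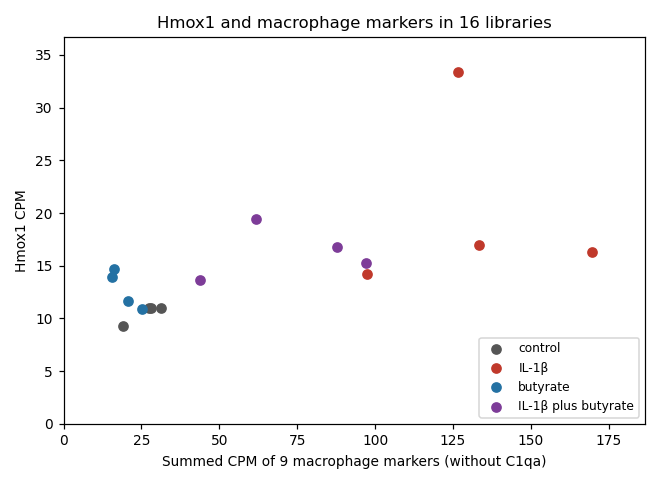
Hmox1 (vertical axis, CPM) against the summed CPM of 9 macrophage markers, C1qa left out (horizontal axis), with 1 point per library in 4 colors for the 4 conditions. Control and butyrate libraries lie at 15.5 to 31.3 CPM of markers, all libraries with IL-1β, alone or combined, at 43.9 CPM or more, a gap that rests on leaving out C1qa, since with it the combination (102 to 142 CPM) overlaps control (131 to 144 CPM), and the highest Hmox1 value, 33.3 CPM, belongs to a library in the middle of the IL-1β range.

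The libraries of 2 conditions did not overlap for 5 of the 10 genes between IL-1β and control (24.7% of all genes), for 4 between butyrate and control (30.1%) and for 5 between both additions and IL-1β (26.9%). They did not overlap for 5 genes between both additions and control (38.5%) and for 8 between both additions and butyrate (24.2%). By the edgeR test, 2 genes rose and 2 fell with both additions against control, where 15.8% and 14.8% of all genes did so, and 6 rose and 1 fell with both additions against butyrate, where the shares were 9.92% and 4.86%. Whether butyrate acted differently in the presence of IL-1β was tested as the difference between its effects. None of the 10 genes passed this test, with edgeR or with DESeq2, and none had an unadjusted p under 0.05, where 0.0968% of all genes passed, 0.043% upward and 0.0538% downward. The smallest unadjusted p was 0.082, for Gclc, with a difference of 0.12 on the log2 scale (95% interval -0.02 to 0.26), and the widest interval was that of Hmox1, -1.34 to 0.16.

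The wider pathway was described with 7 lists of other genes. Of all genes tested, 11.2% rose and 6.59% fell with IL-1β, 8.53% and 11.4% with butyrate, and 8.41% and 11.1% on top of IL-1β. The counts in each list are to be read beside these shares. An unadjusted p under 0.05 was common among all genes, as given above, so list counts at that cutoff are a description only. Among 16 regulators and partners of NRF2, 1 rose and 3 fell with IL-1β, and 1 rose and 3 fell with butyrate. The riser with IL-1β was Mafk, a small MAF partner of NRF2, from 29.7 ± 1.6 to 36.5 ± 2.5 CPM (SD, n = 4, here and for the other genes; log2 fold change 0.30, edgeR adjusted p = 0.00019). Mafg, another small MAF, fell with butyrate (log2 fold change -0.18, edgeR adjusted p = 0.0063) and on top of IL-1β (-0.23, edgeR adjusted p = 0.00071), the former call being lost with upper-quartile scaling. Btrc and Syvn1, of further ubiquitin ligases that bind NRF2, and Dcaf11, a CUL4 adaptor, fell by 0.15 to 0.20 (log2) in islets with IL-1β, and all 3 calls were lost when libraries were scaled by size alone. The partners Cul3, Rbx1, Sqstm1, Maff and Bach1 passed the test in none of the comparisons, with log2 differences between -0.23 and 0.09. Nfe2l1, the related factor NRF1, rose with butyrate by 0.17 (edgeR adjusted p = 0.0021) and by 0.25 on top of IL-1β (edgeR adjusted p = 3.4e-05).

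Of 20 tested genes of glutathione synthesis, transport and transfer (of 23 listed), 6 rose and 2 fell with IL-1β. Gsto1, a glutathione transferase, went from 7.96 ± 0.78 to 18.2 ± 1.6 CPM (log2 fold change 1.19, edgeR adjusted p = 3.1e-12), and Gstm5 rose by 0.56. The 2 that fell form the cystine importer: Slc7a11 (log2 fold change -0.54, edgeR adjusted p = 6.5e-05) and its partner chain Slc3a2 (-0.29, edgeR adjusted p = 4.2e-06). Butyrate on top of IL-1β raised both again, by 0.49 and 0.23. Slc7a11 was at 26.8, 18.8, 21.3 and 19.4 CPM with IL-1β and at 31.7, 30.7, 28.2 and 29.8 CPM with both additions, next to 32.6, 29.2, 30.1 and 32.6 CPM in control islets. With butyrate alone 4 rose, among them Gstt1 (0.53) and Gstm2 (0.46), and only Gpx2 fell, an NRF2-responsive glutathione peroxidase, from 60.9 ± 6.7 to 6.68 ± 0.47 CPM (log2 fold change -3.19, edgeR adjusted p = 2.6e-10). On top of IL-1β 4 rose and 3 fell, with Gpx2 at -2.96 and Glrx, a glutaredoxin, at -0.53.

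The 6 genes of NADPH supply, which feeds both reductases, moved up with IL-1β in 2 cases and down with butyrate in 4, alone or on top of IL-1β, with no gene called the other way by edgeR or DESeq2 and none the other way at an unadjusted p under 0.05. Me1, malic enzyme, was at 26.0 ± 1.5 CPM in control islets, 42.7 ± 2.6 CPM with IL-1β, 17.5 ± 1.6 CPM with butyrate and 29.7 ± 2.7 CPM with both. Its log2 fold changes were 0.72 with IL-1β (edgeR adjusted p = 2.5e-09), -0.56 with butyrate and -0.52 for butyrate on top of IL-1β. Pgd, of the pentose phosphate pathway, rose by 0.44 with IL-1β, and Idh1, which makes NADPH from isocitrate, fell by a log2 fold change of -0.67 with butyrate. The same 4 falls with butyrate held under upper-quartile scaling.

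Of 16 tested genes of quinone and aldehyde detoxification and export (of 17 listed), 9 rose and none fell with IL-1β, where DESeq2 gave 8 and 0, and 10 were higher and 1 lower at an unadjusted p under 0.05. The largest rise was that of Akr1b8, an aldose reductase relative, from 0.70, 0.83, 0.67 and 0.81 CPM in control islets to 4.55, 5.01, 3.52 and 4.22 CPM (log2 fold change 2.51, edgeR adjusted p = 4.4e-11), followed by the exporter Abcc3 (1.59, edgeR adjusted p = 6.2e-12). Under upper-quartile scaling the count was 7 higher and 1 lower. With butyrate 3 rose and 3 fell, with Ptgr1, a reductase of unsaturated ketones, at 1.68 and the exporter Abcc2 at -1.18. On top of IL-1β 1 rose and 5 fell, Akr1b8 by a log2 fold change of -0.72 (edgeR adjusted p = 0.00088) and Aox1, aldehyde oxidase, by -0.61. Of the 8 genes of heme and iron handling, Slc40a1, the iron exporter ferroportin, rose by 0.71 and Fth1, ferritin heavy chain, by 0.22 with IL-1β, while Ftl1, ferritin light chain, fell by 0.32. No gene of this list passed the edgeR or DESeq2 test with butyrate alone (1 higher and 1 lower at an unadjusted p under 0.05), and only Blvrb, a biliverdin reductase, rose on top of IL-1β (0.63). There DESeq2 also called a fall of Slc40a1 (log2 fold change -0.29, DESeq2 adjusted p = 0.0091), which the main edgeR test did not.

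Of 18 genes of the thioredoxin system, 4 rose and 1 fell with IL-1β, whereas 6 fell and none rose with butyrate, and likewise on top of IL-1β. DESeq2 gave 7 and 6 falls and no rise, and at an unadjusted edgeR p under 0.05 there were 9 lower and 1 higher with butyrate and 11 lower and 0 higher on top of IL-1β. Txn1, thioredoxin itself, was at 72.4, 80.3, 68.6 and 72.5 CPM in control islets and at 109.7, 115, 87.5 and 81.7 CPM with IL-1β (log2 fold change 0.42, edgeR adjusted p = 0.0060). Prdx4, the peroxiredoxin of the endoplasmic reticulum, rose by 0.53 with IL-1β and fell by 0.26 with butyrate. Map3k5, the kinase ASK1 that thioredoxin holds inactive, fell by 0.28 with IL-1β and by 0.29 with butyrate. The methionine sulfoxide reductases Msra and Msrb2 fell by 0.53 and 0.51 with butyrate. Under upper-quartile scaling butyrate lowered 3 and raised 1 of this list, and the call of Prdx4 was among those lost.

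Txnip is an alpha-arrestin, and its relatives and the glucose-responsive factors are set beside it here, without a test between genes. Arrdc4, the other arrestin known as a ChREBP target, was at 43.3, 39.9, 39.4 and 38.1 CPM in control islets and at 60.5, 55.3, 52.2 and 48.0 CPM with IL-1β. It was at 28.7, 27.2, 29.9 and 28.9 CPM with butyrate and at 42.1, 38.9, 37.0 and 34.1 CPM with both additions. It rose with IL-1β (log2 fold change 0.42, edgeR adjusted p = 1.1e-05), and butyrate gave -0.49 (edgeR adjusted p = 3.8e-06) and, on top of IL-1β, -0.50 (edgeR adjusted p = 1.4e-06). Mlxipl, which encodes ChREBP, was called in the same directions, with 0.31 for IL-1β (edgeR adjusted p = 0.0030), -0.30 for butyrate (edgeR adjusted p = 0.0032) and -0.31 on top of IL-1β (edgeR adjusted p = 0.0027), although these calls were lost with upper-quartile scaling and those with butyrate also with library size alone. Mlxip, which encodes the paralog MondoA, was not called in any of the 3. On top of IL-1β, however, it rose with upper-quartile scaling (log2 fold change 0.24, edgeR adjusted p = 0.0036) and without the filter on low counts. It also rose there with the replicate number as a block (0.19, edgeR adjusted p = 0.0011). In all, 3 of the 8 tested genes of this list (of 9) rose with IL-1β, and 4 fell with butyrate, Arrdc3 (-0.47) and Mlx (-0.26), the shared partner of both factors, being the other 2. No gene of the list fell with IL-1β or rose with butyrate by the main edgeR test or DESeq2, and 1 did so in each case at an unadjusted p under 0.05. Under upper-quartile scaling, however, 2 rose and 1 fell with IL-1β, the fall being that of Arrdc3 (-0.22, edgeR adjusted p = 0.0077). The replicate block also called this fall of Arrdc3 (-0.19, edgeR adjusted p = 0.0026).

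**Figure D4:**
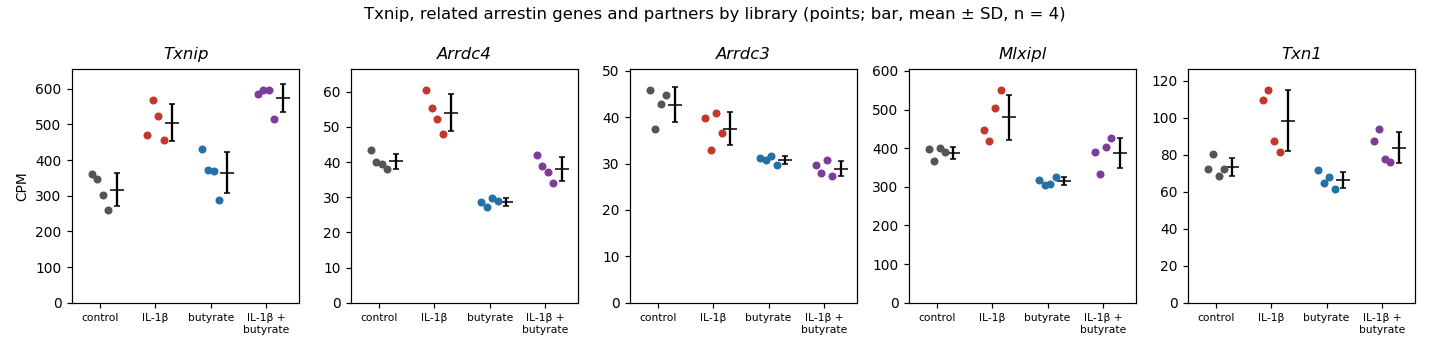
TMM-scaled CPM of Txnip, the related arrestins Arrdc4 and Arrdc3, Mlxipl (ChREBP) and Txn1 (thioredoxin) in the 16 libraries; points are replicates 1 to 4, bars are mean ± SD (n = 4) and each axis starts at 0. Butyrate libraries of Arrdc4, at 27.2 to 29.9 CPM, lie below all its control libraries, while those of Txnip, at 289 to 429.8 CPM, overlap its control libraries.

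With both additions against control, the lists kept values from either side. Mafk (0.34) and Nfe2l1 (0.27) rose while Dcaf11 (-0.44) and Mafg (-0.39) fell, and Gsto1 (0.90), Gstt1 (0.74), Abcc3 (1.82), Akr1b8 (1.79), Blvrb (0.64) and Prdx4 (0.29) were higher while Gpx2 (-2.41), Idh1 (-0.45), Tkt (-0.25), Aox1 (-0.63), Ugdh (-0.51), Msrb2 (-0.69), Map3k5 (-0.57) and Arrdc3 (-0.56) were lower, all log2 fold changes past the edgeR test. Gpx2 with both additions, at 11.4 ± 0.89 CPM, stayed far below its control level. Against butyrate, IL-1β raised Gpx2 by 0.78, Me1 by 0.76, Akr1b8 by 1.68, Abcc2 by 1.25 and Slc40a1 by 0.64 on the log2 scale, among others. Among the falls in that comparison were Ftl1 (-0.35), Gstm2 (-0.31), Map3k5 (-0.28), Osgin1 (-0.27), and Mafg, Dcaf11 and Slc3a2 (-0.21 each).

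**Figure D5:**
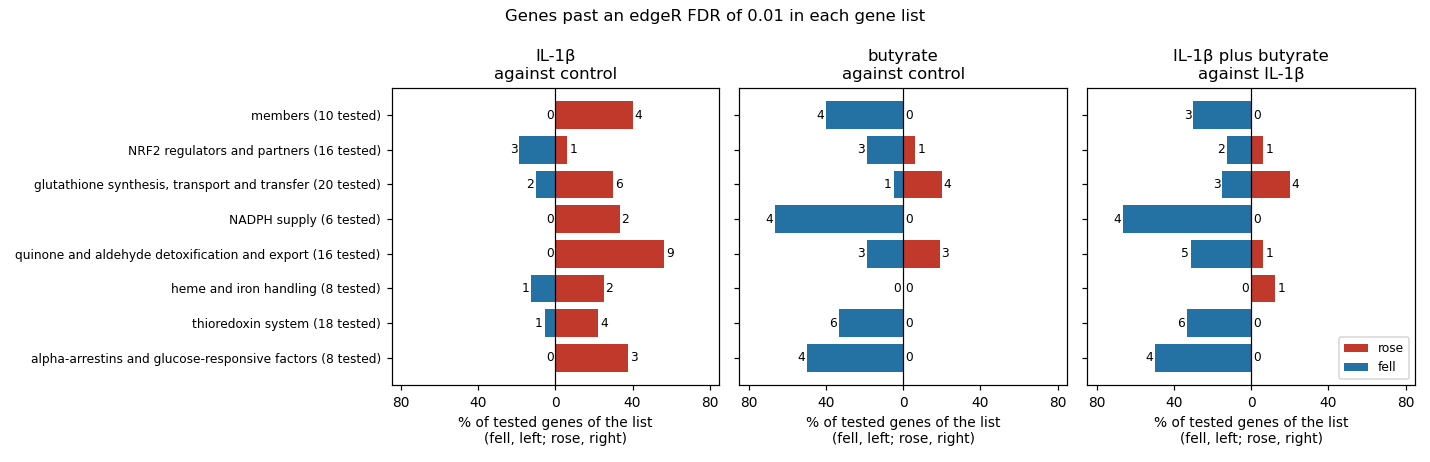
Share of the tested genes of each list (percent, horizontal axis) that rose (red, to the right) or fell (blue, to the left) at an edgeR adjusted p under 0.01 in 3 comparisons, with the numbers of genes beside the bars. Quinone and aldehyde detoxification has the most rises with IL-1β, 9 of 16. The 10 members, NADPH supply, the thioredoxin system and the arrestin list have falls and no rises with butyrate under TMM scaling. With upper-quartile scaling, however, Nxn of the thioredoxin system rose with butyrate. Of all genes, 11.2% rose with IL-1β and 11.4% fell with butyrate.

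Read against the shares over all genes, these lists are a description of chosen genes. Those shares were 11.2% rising and 6.59% falling with IL-1β, 8.53% and 11.4% with butyrate, and 8.41% and 11.1% on top of IL-1β. The summed markers of beta, macrophage, duct and endothelial cells also differed between some of these conditions, though single markers did not all follow their sum. Their part in the counts was not tested. The genes nearest in pattern were sought by the root mean square difference of log2 CPM over the 16 libraries, each gene centred on its own mean. They were Abcc4 (0.10) and Atp2a3 (0.10) for Nfe2l2, Ildr1 (0.05) and Ccrl2 (0.05) for Gclm, Wdr1 and Fam171a1 (0.06 each) for Txnrd1, and Hist1h1c (0.13) and H2-D1 (0.14) for Txnip. They were Eif1b (0.05) and Parl (0.06) for Gclc, Rnf19b (0.05) and Trmt6 (0.05) for Gsr, and Ndrg1 (0.06) and Xrcc6 (0.07) for Srxn1, and for Keap1 they were Habp4 (0.03) and Icmt (0.04). Abcc4 is itself an exporter on the list of quinone and aldehyde detoxification and export, and it rose with IL-1β (log2 fold change 0.65).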

How the data were processed

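The data are bulk RNA sequencing of cultured mouse islets in 16 libraries, sequenced from a single end. The authors mapped the reads to GRCm38 (mm10) and deposited read counts per gene as whole numbers without normalization, in 1 column per library. The submitters' processing notes name STAR 2.5.3a, FastQC 0.11.7, MultiQC 1.7 and DESeq2. The annotation release, strand setting and read filters are not given in the sources used here.

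Symbols and positions came from GENCODE M21 (52489 of 52636 identifiers). Low counts were filtered with filterByExpr, which left 18587 genes, and edgeR 4.0.16 (R 4.3.3) scaled the libraries by TMM and fitted 1 robust quasi-likelihood model with the 4 conditions. Calls used an adjusted p under 0.01 (Benjamini-Hochberg, over all genes tested), the threshold of the study. SE is the log2 fold change divided by the root of F. Replicates of a condition differed by a chi-square per gene of 1.72 to 13.5, where counting error gives about 1, so none was merged, and p-values measure the spread between these libraries of pooled islets. Promoter windows came from the RefSeq table.

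The members and the gene lists were chosen with earlier results of these data known. Named were all members, the direct partners, and per list and comparison the 2 largest rises and falls among called genes with an average log2 CPM of at least 1, with the 2 nearest patterns of each called member. Values of a gene so named are also given in other comparisons. Alternatives were other scalings (RLE, upper quartile, library size alone), no filter, DESeq2 1.42.0, a replicate block, an adjusted p under 0.05, only the libraries compared, and each library left out.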

Additional observations from a re-analysis of the deposited data

Results flagged for a closer look

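In 5 of the 40 groups of 4 libraries (10 genes in 4 conditions), the highest or the lowest library stood apart from the others by Dixon's test at the 95% level, where chance gives about 1 in 20 groups. Hmox1 was lowest in control replicate 1, at 9.29 CPM against 10.96 CPM in the nearest library, and highest in IL-1β replicate 2, at 33.3 CPM against 16.9 CPM. Gclc was highest in replicate 4 with both additions, at 55.4 CPM against 51.9 CPM. Gclm was lowest in IL-1β replicate 4, at 101 CPM against 104 CPM. Txnip was lowest in replicate 4 with both additions, at 515 CPM against 587 CPM. Without IL-1β replicate 2, Hmox1 passed the test with IL-1β (log2 fold change 0.59, edgeR adjusted p = 0.00054) and with both additions against control (0.62, edgeR adjusted p = 5.7e-05). Without replicate 4 of the combination, the fall of Gclc on top of IL-1β passed the test (-0.19, edgeR adjusted p = 0.0067) and its rise against butyrate did not (0.18, edgeR adjusted p = 0.012). Leaving out control replicate 1 for Hmox1, IL-1β replicate 4 for Gclm or replicate 4 of the combination for Txnip changed no call of that gene.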

How the results depend on the processing

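Of 60 tests of a gene in a comparison, 34 kept their call in every alternative, as did 14 of the 22 called tests, and the causes of the changes were not tested. Members called with butyrate went from 4 to 2 with upper-quartile scaling, and from 2 to 4 over the libraries left out, with 2 without control replicate 1 or 2 or butyrate replicate 2 or 4. On top of IL-1β, 3 became 5 at an adjusted p under 0.05, with DESeq2 and with the replicate block, and 1 with upper-quartile scaling. Over only the libraries compared it was 2. At an adjusted p under 0.05, 5595 of all genes passed on top of IL-1β in place of 3629. For the difference between the butyrate effects, 18 genes became 39 at an adjusted p under 0.05, 95 without the filter, 44 with DESeq2 and 132 with the replicate block, and 11 to 25 with a library left out, the lowest without butyrate replicate 1.

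Signs turned only in values that were not called. With upper-quartile scaling Nfe2l2 with butyrate was at a log2 difference of 0.020, and -0.11 to 0.031 with a library left out, and Hmox1 on top of IL-1β was at -0.46 to 0.036 with a library left out. With library size alone, Gclc was at 0.016 and Gsr at 0.0021 for both additions against control, and Keap1 at 0.038 against butyrate. For the difference between the butyrate effects, Gclm was at 0.026 and Txnip at 0.018 with library size alone, and Gclm at 0.0022 without the filter. With a library left out, this difference was -0.026 to 0.033 for Keap1, -0.30 to 0.021 for Nqo1, -0.037 to 0.021 for Gclm and -0.11 to 0.070 for Txnip.

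Scaling moved the share of rises among all called genes with IL-1β from 63.0% to 51.5% (upper quartile) or 79.8% (library size alone), with butyrate from 42.9% to 58.5% and on top of IL-1β from 43.1% to 57.7% (upper quartile). For both additions it went from 51.6% to 66.9% against control (library size alone), and from 67.1% to 53.2% or 87.5% against butyrate.

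The study speaks of independent experiments, and its general statistics name a paired t-test or a Mann-Whitney test. The columns are numbered in order within each replicate number. Neither the labels nor the methods, however, state that libraries of a number share an experiment, so the block was not the main model. Deviations of same-numbered libraries correlated above 0.1 in 17 of 24 pairs (0.053 to 0.397). For 14 of 16 libraries the mean correlation with libraries of other conditions was highest for their own number. With the replicate block, members called were 6 with IL-1β, 5 with butyrate, 5 on top of IL-1β, 4 for both additions against control, 8 against butyrate and 0 for the difference. It added Hmox1 (adjusted p = 0.0039) and the fall of Srxn1 (3.7e-05) with IL-1β, Txnrd1 with butyrate (0.0025), Gclc (0.0085) and Txnrd1 (9.8e-05) on top of IL-1β, and the fall of Nqo1 against butyrate (0.0020), and ended no called test of a member.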
